A study of Mus musculus with 4 samples.

Results

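The genes described here are 44 that mark neurons or build their synapses, axons and dendrites, read in HT22, a mouse hippocampal neuron line that was immortalised and divides in culture. They were chosen by name: 7 genes of neuronal identity, 6 of synaptic vesicle release, 12 of glutamate receptors with their scaffolds and kinases, 8 of synaptic and axonal adhesion, 8 of the axonal cytoskeleton and its growth, and 3 of neurotrophin signalling. Of the 44, 32 had a row among the 16846 genes of the count table, and the other 12 (Rbfox3, Dcx, Prox1, Calb1, Neurod1, Snap25, Gria2, Grin1, Grin2b, Nefm, Stmn3 and Ntrk2) had no row to read and were not analysed here.

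RNA was measured in 4 groups of HT22 cells: cells with a short hairpin RNA (shRNA) against the long noncoding RNA Ntoco (labelled sh-Ntoco), cells with a control shRNA (sh-Ctrl), cells overexpressing Ntoco (Lv-Ntoco) and cells with an empty vector (Vector). No other treatment is named, and all groups share the line, which is called HT22 in the cell line label while the titles number the cells HT22 to HT25. The labels list 1 sample per group, whereas the tables hold 2 numbered columns per group, used here as 2 libraries, and the column names call the vector pcDNA where the overexpression label has Lv, so the delivery is uncertain. The column names call the target AK and none names Ntoco, so the sh_AK columns were read as the Ntoco knockdown and the AK_OE columns as the Ntoco overexpression by inference. There were 0 rows named Ntoco, so neither this reading nor the knockdown and overexpression themselves could be checked in these values.

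A neuron is defined by RNA and protein that most other cells lack. Its microtubules carry Map2 and the tubulin Tubb3, its axon holds neurofilaments and tau, and its vesicles fuse through the SNARE proteins Snap25, Stx1a and Vamp2 under the calcium sensor Syt1. Across the synaptic cleft, glutamate opens AMPA and NMDA receptors that are anchored by scaffolds of the Dlg family and read by the kinase CaMKII, while neurexins and neuroligins hold both membranes together. In cells outside the nervous system the repressor REST keeps many of these genes off. HT22 cells are used to study oxidative glutamate toxicity, which in this line does not run through ionotropic glutamate receptors.

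Total counts lay between 18452588 and 19859041 per library. At that depth, 0 counts in a library allows a level of up to 0.151 to 0.163 CPM, the count scaled to the library total, for counting error only. Levels of different genes are compared as FPKM, the count per length of gene and per library total, and the same gene is compared between libraries as CPM scaled with TMM factors. By the median difference over all genes tested, knockdown library 2 lay nearest to vector library 1 (0.28 on the log2 scale) and farther from its own partner (0.38), and only 2 of the 8 libraries lay nearest to their partner.

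HT22 cells held little RNA of most of these genes. With a mean of at least 1 FPKM over the 8 libraries called expressed, 6 of the 32 measured members were expressed: L1cam, Vamp2, Bdnf, Camk2a, Dlg3 and Nlgn2. That was 18.8% of the members, against 61.1% of all rows. A further 10 lay between 0.1 and 1 FPKM and 16 under 0.1 FPKM. The lowest held almost no reads, and 11 members had 10 counts or fewer over all 8 libraries together. The threshold bears on this count: 13 members reached a mean of 1 CPM, where length is not taken into account. In bulk RNA, fewer cells of a type and less RNA per cell cannot be told apart.

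**Figure D1:**
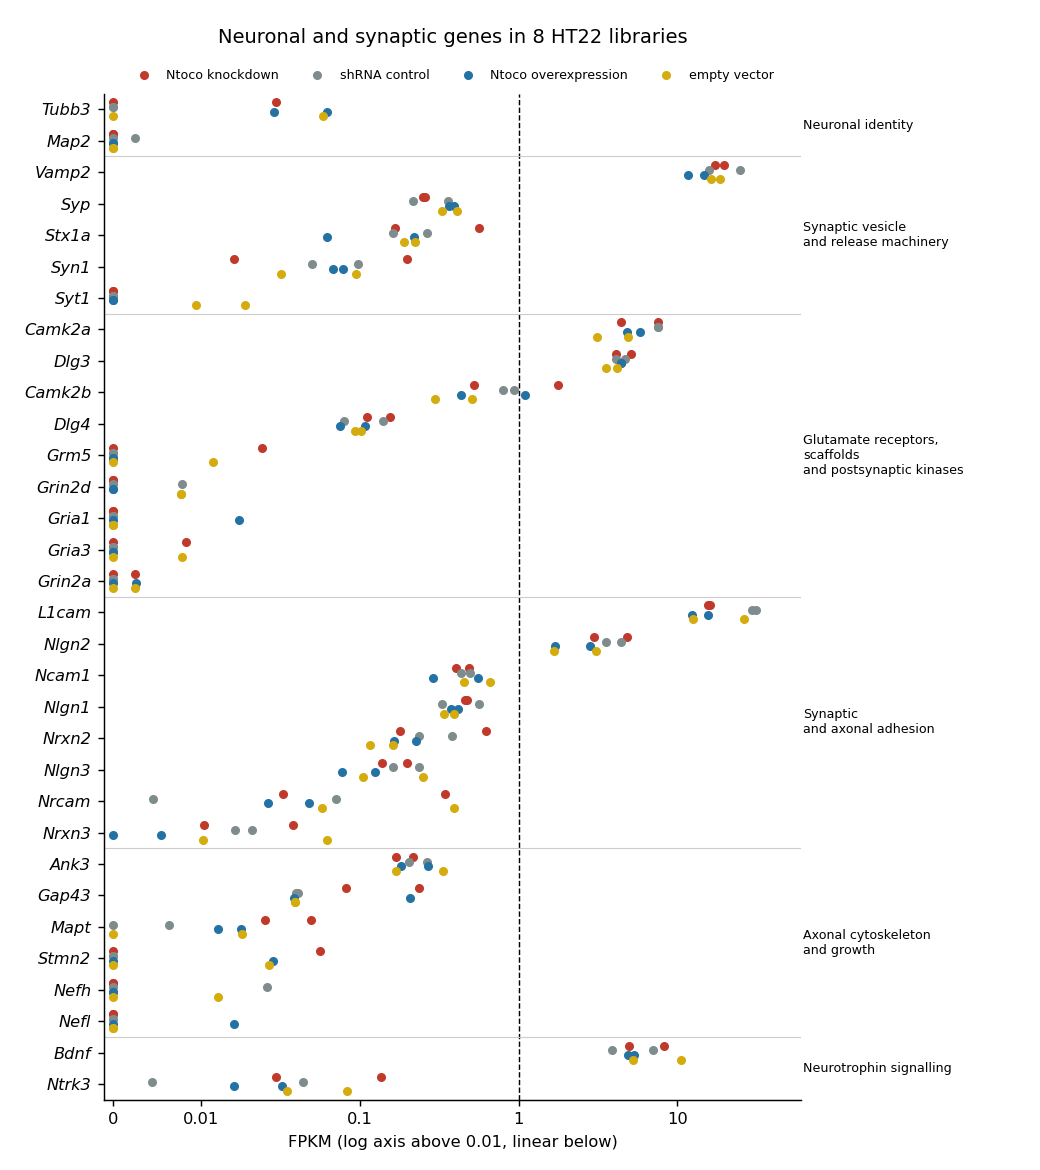
FPKM of the 32 measured members in each of 8 libraries (points, coloured by group), on a log axis that is linear below 0.01, grouped by role, with a dashed line at 1 FPKM. Only 6 members have a mean above the line, and Map2, Syt1 and the measured glutamate receptor members lie at or near 0 in every group.

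The 2 measured genes of neuronal identity were almost uncounted. Map2, the dendritic microtubule protein (Entrez Gene 17756, GRCm38 chromosome 1, 66175202 to 66442583), had 1 count in all, in shRNA control library 2. Tubb3, the neuron-specific beta-tubulin (Entrez Gene 22152, chromosome 8, 123411553 to 123422015), had 0 and 1 counts in the knockdown libraries and 0 and 0 in the shRNA control libraries. It had 1 and 2 counts in the overexpression libraries and 2 and 0 in the vector libraries. These counts are too few to compare groups.

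The release machinery was uneven. Vamp2, the vesicle SNARE synaptobrevin 2 (Entrez Gene 22318, chromosome 11, 69088528 to 69092381), had a mean of 17.4 FPKM and ranked above 74.9% of all rows. The other 4 measured members of this group stayed under 0.4 FPKM on average. The vesicle protein synaptophysin, Syp, had 0.322 FPKM and 10 to 20 counts per library. Stx1a, syntaxin 1A, the plasma membrane SNARE that pairs with Vamp2, had 0.231 FPKM, with 10 and 35 counts in the knockdown libraries and 10 and 16 in the shRNA control libraries. The vesicle-tethering phosphoprotein Syn1, synapsin I, had 39 counts in all. Syt1, the calcium sensor of fast release, had 3 counts in all, 2 in vector library 1 and 1 in vector library 2.

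The measured glutamate receptor members were at the edge of detection. The AMPA receptor subunits Gria1 and Gria3 had 2 counts each over the 8 libraries, and the NMDA receptor subunits Grin2a and Grin2d and the metabotropic receptor Grm5 had 3 each. No library held more than 2 counts of any of the 5. The genes that anchor and read out these receptors were higher. Camk2a, the alpha subunit of CaMKII (Entrez Gene 12322, chromosome 18, 60925307 to 60988152), had a mean of 5.73 FPKM, and Camk2b, its beta subunit, had 0.799 FPKM. Dlg3, which encodes the scaffold SAP102 (Entrez Gene 53310, chromosome X, 100767411 to 100818410), had 4.33 FPKM, and Dlg4, which encodes the scaffold PSD-95, had 0.108 FPKM. Camk2a and Dlg3 had 348 to 825 and 459 to 626 counts per library, while none of the 5 receptor members passed 3 counts in total. This does not hold for all glutamate receptor genes outside the members. Grik5 had 1487 counts in all and a mean of 1.19 FPKM, and Grik3 had 154 counts, while Gria4 had 0.

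The highest level of the 32 measured members was that of 1 adhesion gene, while the median of the 8 adhesion genes was 0.340 FPKM. L1cam, an adhesion protein of growing axons that is also made outside the nervous system (Entrez Gene 16728, chromosome X, 73853778 to 73880838), had a mean of 19.9 FPKM, above 77.2% of all rows. Nlgn2, the neuroligin of inhibitory synapses (Entrez Gene 216856, chromosome 11, 69823123 to 69837784), had 3.13 FPKM. Its relatives Nlgn1 and Nlgn3 had 0.420 and 0.161 FPKM. The adhesion genes Ncam1 and Nrcam had 0.473 and 0.122 FPKM, and the presynaptic neurexins Nrxn2 and Nrxn3 had 0.261 and 0.0204 FPKM. In the GENCODE M21 annotation, Nlgn3 overlaps exons of the same-strand gene model Gm21986, by 1930 bases in the longest overlap. Reads in shared exon stretches can belong to either.

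The 6 measured members of the axonal cytoskeleton were almost silent apart from Ank3. Outside the members this did not hold throughout. Of the other neuronal cytoskeleton and growth genes listed, 6 of 16 with a row had a mean of at least 1 FPKM, among them Map1b at 23.5 FPKM. The neurofilament light and heavy chains Nefl and Nefh had 1 and 3 counts over the 8 libraries, and Stmn2, a microtubule regulator of growing axons, had 4. Gap43, the growth cone protein, had 18 counts and Mapt, which encodes tau, had 21. Ank3, ankyrin G, the scaffold of the axon initial segment (Entrez Gene 11735, chromosome 10, 69533486 to 70027436), was counted 178 to 355 times per library. Its mean was 0.226 FPKM, and the authors' values imply a length of 54349 bases for it, where the union of its GENCODE M21 exons is 34838 bases. Per length Ank3 thus lay near Stx1a, and per read it lay above Nlgn1.

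Of the neurotrophin genes, the ligand was expressed and the measured receptor was not. Bdnf, brain-derived neurotrophic factor (Entrez Gene 12064, chromosome 2, 109674700 to 109727043), had a mean of 6.26 FPKM. Ntrk3, the receptor tyrosine kinase of neurotrophin 3, had 0.0476 FPKM, with 2 to 62 counts per library. The counting strand is not given in the sources used here. Exons of Bdnf overlap a gene model on the other strand, by 497 bases in the longest overlap. Reads of the pair cannot be told apart in shared exon stretches. The same limit holds for Nlgn1, Syp and Nrxn2, with longest overlaps of 1229, 875 and 682 bases.

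The same families were read through their broadly expressed relatives, and in all 10 pairs with both rows the relative was the higher gene in 8 of 8 libraries. The relatives were chosen as broadly expressed genes, with earlier results of these data known, so this order is a description and no test. Tubb3 averaged 0.0225 FPKM, against 485 FPKM for Tubb5, the common beta-tubulin. Stmn2 averaged 0.0139 FPKM, against 149.8 FPKM for Stmn1, and Map2 0.00031 FPKM, against 16.2 FPKM for Map4. Nefl averaged 0.0020 FPKM, against 849 FPKM for the intermediate filament vimentin, Vim. Dlg1 exceeded Dlg4 by 78.6-fold to 156-fold and Sypl exceeded Syp by 48.3-fold to 99.5-fold, over the libraries. The gap was smallest for the expressed members: Vamp3 exceeded Vamp2 by 3.14-fold to 8.48-fold, and Camk2d exceeded Camk2a by 2.08-fold to 3.82-fold. Snap23 averaged 13.7 FPKM and Rbfox2 8.07 FPKM, and their neuronal relatives Snap25 and Rbfox3 were not analysed here.

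**Figure D2:**
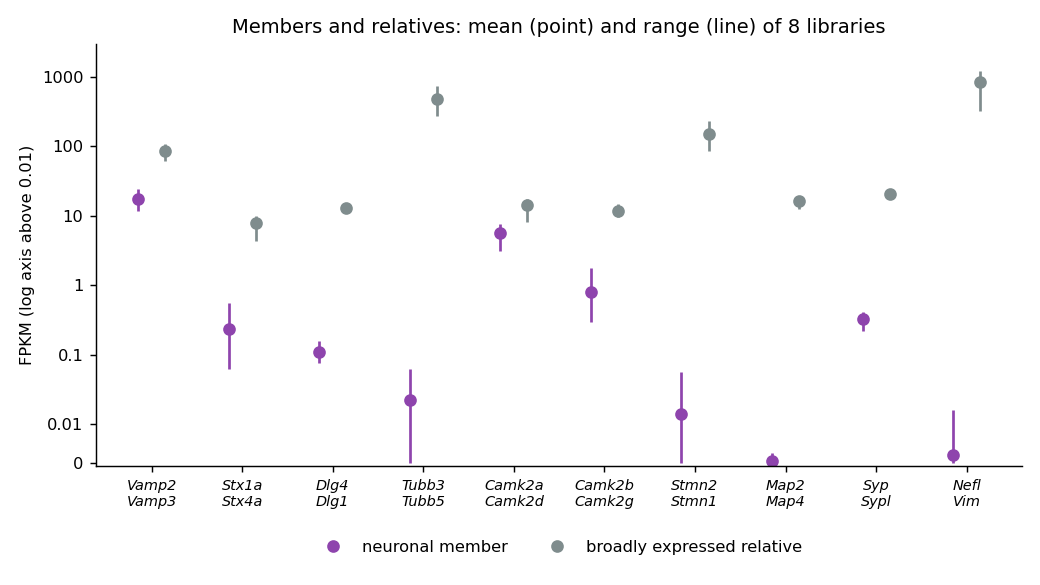
Mean FPKM (points) and range over 8 libraries (lines) of 10 neuronal members (purple, left of each pair) and their broadly expressed relatives (grey, right), on a log axis that is linear below 0.01. The relative lies above the member in each pair, for example Tubb3 at 0.0225 FPKM against Tubb5 at 485 FPKM, and Camk2a at 5.73 FPKM against Camk2d at 14.1 FPKM.

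Among other neuronal genes the picture was alike. Of 130 genes listed from the same pathways, 106 had a row, 26 (24.5%) had a mean of at least 1 FPKM and 7 reached 10 FPKM. Among them were Nptn (104 FPKM), an immunoglobulin-family adhesion protein, Nsf (29.5 FPKM), which takes SNARE complexes apart, and Map1b (23.5 FPKM), a microtubule protein. Arc, an activity-induced gene, averaged 12.7 FPKM but ranged from 1.95 to 31.1 FPKM over the 8 libraries. Of the 11 repressors of neuronal genes listed, all had a mean above 1 FPKM. That list was chosen with earlier results of these data known, so the count is a description and no test. Rest, the repressor itself, averaged 9.15 FPKM, with 6.53 to 12.3 FPKM over the 8 libraries. Its corepressor Rcor1 averaged 12.9 FPKM. Ptbp1, a splicing factor that holds neuronal splicing down, averaged 253 FPKM, and Ptbp2, the neuronal paralogue, averaged 10.5 FPKM.

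**Figure D3:**
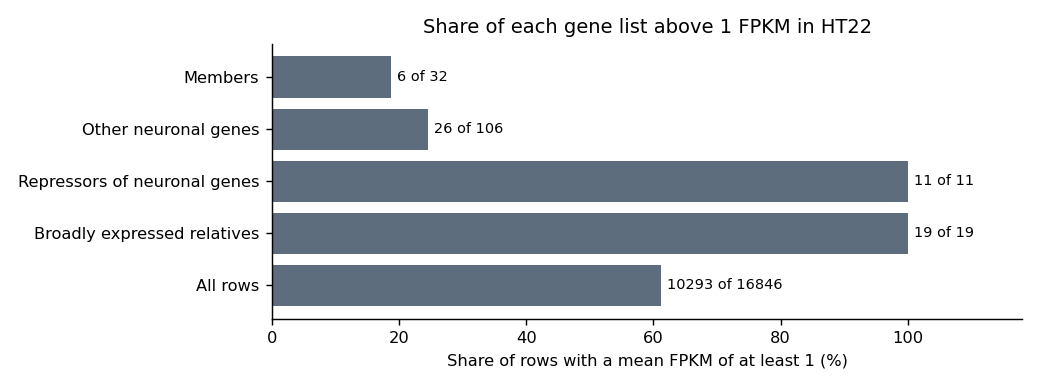
Percentage of the rows in each gene list with a mean of at least 1 FPKM over 8 libraries, with the number of genes beside each bar. The members (6 of 32) and the other neuronal genes (26 of 106) lie below all rows (61.1%), and the repressors and broadly expressed relatives are all above 1 FPKM. The relatives were chosen as broadly expressed genes, and all lists, the repressors included, were chosen with earlier results of these data known.

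Markers of other cell types were also read, and none of the 6 lists was expressed as a whole. Of the fibroblast and mesenchymal markers 3 of 8 reached 1 FPKM, with Col1a2 at 400 FPKM, Fn1 at 116 FPKM and Col1a1 at 87.0 FPKM, while Lum had 0 counts in all libraries and Dcn 1 count. Of the astrocyte markers 4 of 7 did, with Gja1 at 17.3 FPKM, while Gfap averaged 0.190 FPKM. The oligodendrocyte lineage list had 3 of 6 (Cspg4, Pdgfra and Mbp), with 6 counts of Sox10 and 1 of Mog in all. The endothelium and pericyte list had 1 of 6 (Pdgfrb, 30.7 FPKM) and the microglia and macrophage list 1 of 7 (Cd68), with Ptprc at 0 in all libraries. The neural progenitor list had 1 of 4, Pax6 at 4.81 FPKM.

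Promoter sequence is shown for 4 members because it puts an expressed gene beside silent ones. Windows run from 250 bases before to 50 bases after an annotated start, are given 5′ to 3′ in the sense of the gene, and are from RefSeq on GRCm38.p6, where 24 of the 44 members had one. L1cam (chrX:73880741-73881040, minus strand, 1 of its 2 windows) is the highest member, and Map2 (chr1:66175079-66175378, plus strand) and Tubb3 (chr8:123411303-123411602, plus strand) are identity genes with 1 and 6 counts in all. Capitals mark CpG in these 3.
L1cam: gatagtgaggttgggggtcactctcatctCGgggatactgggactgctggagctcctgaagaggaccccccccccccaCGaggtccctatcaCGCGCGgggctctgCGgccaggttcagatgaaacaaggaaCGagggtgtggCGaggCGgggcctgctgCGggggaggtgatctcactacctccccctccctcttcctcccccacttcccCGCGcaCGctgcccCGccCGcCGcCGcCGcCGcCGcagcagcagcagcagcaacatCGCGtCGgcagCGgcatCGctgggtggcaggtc
Map2: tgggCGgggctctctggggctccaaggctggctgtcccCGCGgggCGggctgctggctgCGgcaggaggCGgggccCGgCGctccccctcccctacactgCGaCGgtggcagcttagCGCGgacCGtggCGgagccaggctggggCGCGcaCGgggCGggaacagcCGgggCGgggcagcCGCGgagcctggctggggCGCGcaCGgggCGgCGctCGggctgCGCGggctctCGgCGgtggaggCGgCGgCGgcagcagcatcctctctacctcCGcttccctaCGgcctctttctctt
Tubb3: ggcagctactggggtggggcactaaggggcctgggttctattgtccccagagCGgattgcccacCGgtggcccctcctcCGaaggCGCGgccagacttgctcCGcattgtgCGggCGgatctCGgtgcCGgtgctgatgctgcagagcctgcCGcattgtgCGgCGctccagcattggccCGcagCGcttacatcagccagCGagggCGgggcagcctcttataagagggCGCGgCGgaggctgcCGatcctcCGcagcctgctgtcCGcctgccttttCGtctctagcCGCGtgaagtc
The windows held 25 CpG in L1cam, 37 in Map2 and 26 in Tubb3. The other members under 0.1 FPKM with a window varied: Syn1 had 33, Syt1 at most 8, Grin2d 12 and Nrxn3 at most 16. Over genes with a window, taking the highest window of each, the median was 21 CpG in the 6 members under 0.1 FPKM and 25.5 in the 4 members of at least 1 FPKM. It was 7 in all rows under 0.1 FPKM and 23 in all rows of at least 1 FPKM.

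Synapsin I has a binding element of REST (RE1) in its promoter, a textbook case. In the Syn1 window (chrX:20920869-20921168, minus strand), where the gene had 39 counts in 8 libraries, capitals mark TTCAGCACC, the letters of the left arm of the RE1 consensus, which start 232 bases before the annotated start.
Syn1: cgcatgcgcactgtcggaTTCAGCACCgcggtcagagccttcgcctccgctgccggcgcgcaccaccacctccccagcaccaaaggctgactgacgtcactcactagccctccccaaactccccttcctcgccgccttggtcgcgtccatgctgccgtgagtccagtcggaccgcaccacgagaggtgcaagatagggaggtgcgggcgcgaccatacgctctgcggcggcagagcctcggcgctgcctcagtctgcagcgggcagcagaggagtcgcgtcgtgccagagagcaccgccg
TTCAGCACC, searched on both strands, was found in 2 of the 40 windows of members (5%), those of Syn1 and Nlgn1, and in 0.371% of all 32851 windows. The whole RE1 consensus was searched as a separate pattern, whose matches need not hold TTCAGCACC letter for letter. That pattern was found in 1 member window, that of Gria2, and in 0.0639% of all windows. The Gria2 window did not hold TTCAGCACC, and the Syn1 window did not match the whole pattern. A match in the letters is no evidence of binding here, and a miss of the whole pattern is no evidence that an element is absent.

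Only 17 members had enough counts to be tested between groups, under a filter that 2 libraries can satisfy, and 15 did not. Of the 15, 11 had 10 counts or fewer in total, and the other 4 were Syn1 (39), Nrxn3 (31), Mapt (21) and Gap43 (18). No tested member passed an adjusted p of 0.05 in any comparison with edgeR's quasi-likelihood test, where 0% of all 12115 genes were called, and DESeq2's Wald test called 0 members too. Over all genes DESeq2 called 15 in the knockdown, 1 in the overexpression and 281 in the empty vector comparison. In 8 of the 17 tested members some group had more than a 2-fold gap between its libraries. The share over all genes tested was not computed, so this is not shown to be a trait of these members. Some of the 8 also had few counts, such as Stx1a with 4 and 13 in the overexpression libraries.

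**Figure D4:**
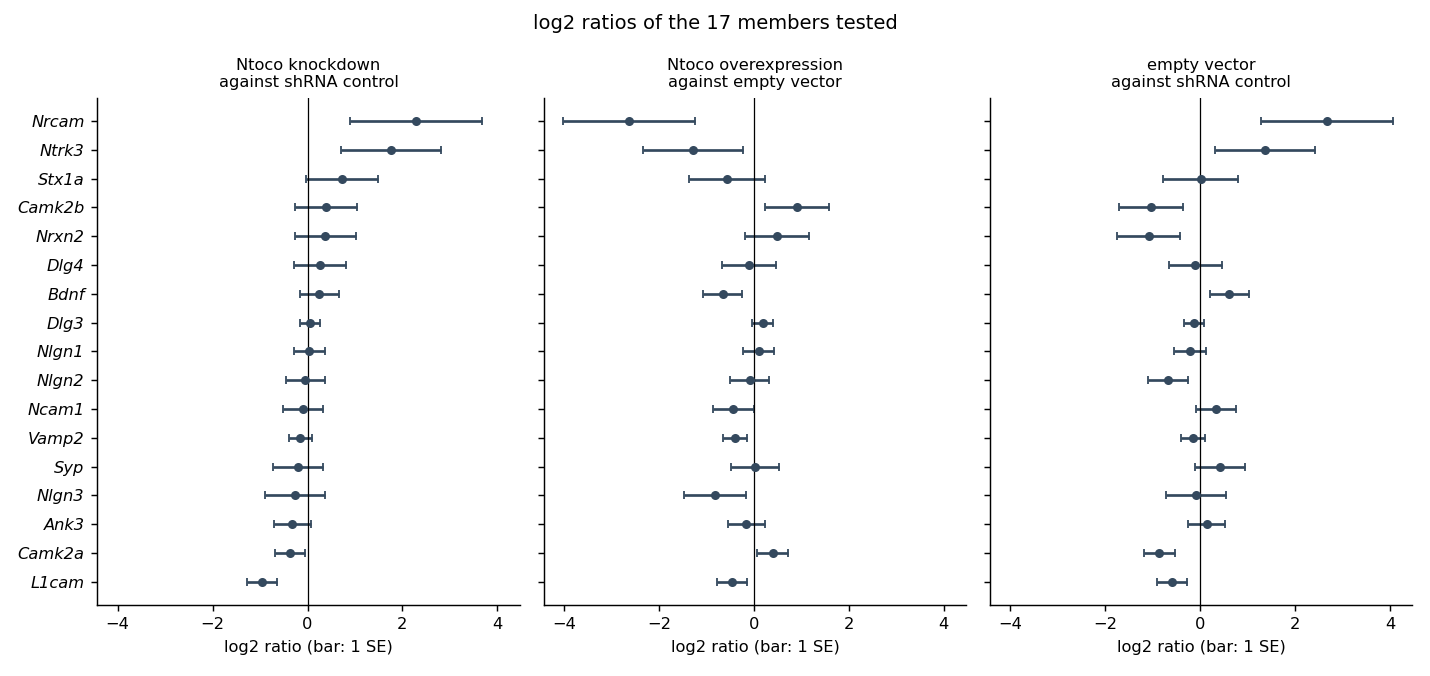
The log2 ratio (points) and 1 standard error (bars) of each of the 17 tested members in 3 comparisons: Ntoco knockdown against shRNA control, Ntoco overexpression against its vector, and the vector against the control shRNA. Most lie within 1 log2 unit of 0, L1cam has the lowest knockdown ratio at -0.95, and Nrcam and Ntrk3 have the widest bars.

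The knockdown comparison asks what differs when Ntoco is lowered, and L1cam had the lowest unadjusted p of the 17 tested members. It had 90.1 and 85.4 CPM in the knockdown libraries and 168 and 172 CPM in the shRNA control libraries. Both knockdown libraries were lower, and the groups did not overlap. The means were 87.8 ± 3.34 CPM in the knockdown and 170.1 ± 3.20 CPM in the shRNA control (SD, n = 2 each). The log2 ratio was -0.95 (SE 0.32), with an unadjusted p of 0.0171 and an adjusted p of 0.992 in edgeR, so it did not pass. The ratio lay between -1.002 and -0.917 with any 1 of the 4 libraries left out. L1cam was the 1 member of 17 at an unadjusted p under 0.05, where 3.12% of all genes tested were. It was also the 1 member with both knockdown libraries lower, where 14.1% of all genes were, and 0 members had both higher, where 15.1% of all genes did.

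No other member separated knockdown from shRNA control. The vesicle SNARE Vamp2 had 36.8 and 40.9 CPM in the knockdown libraries and 34.5 and 51.7 CPM in the shRNA control libraries, and the groups overlapped. Bdnf had 31.3 and 50.3 CPM in the knockdown and 25.04 and 43.7 CPM in the shRNA control, and overlapped too. Dlg3 was the steadiest, with 32.7 and 26.0 CPM in the knockdown and 27.2 and 29.8 CPM in the shRNA control. Camk2a had 42.0 and 24.0 CPM in the knockdown, against 43.2 and 41.8 CPM in the shRNA control. Here knockdown library 1 lay between the controls and library 2 below both. Nlgn2 had 24.9 and 14.9 CPM in the knockdown and 18.8 and 22.3 CPM in the shRNA control, with the knockdown libraries on either side. Their log2 ratios were -0.15 (SE 0.25) for Vamp2, 0.25 (SE 0.41) for Bdnf, 0.04 (SE 0.21) for Dlg3, -0.37 (SE 0.32) for Camk2a and -0.05 (SE 0.41) for Nlgn2. As a description of the members that passed the filter, 9 ratios were above 0 and 8 below, with a median of 0.04 beside 0.01 for all genes tested.

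**Figure D5:**
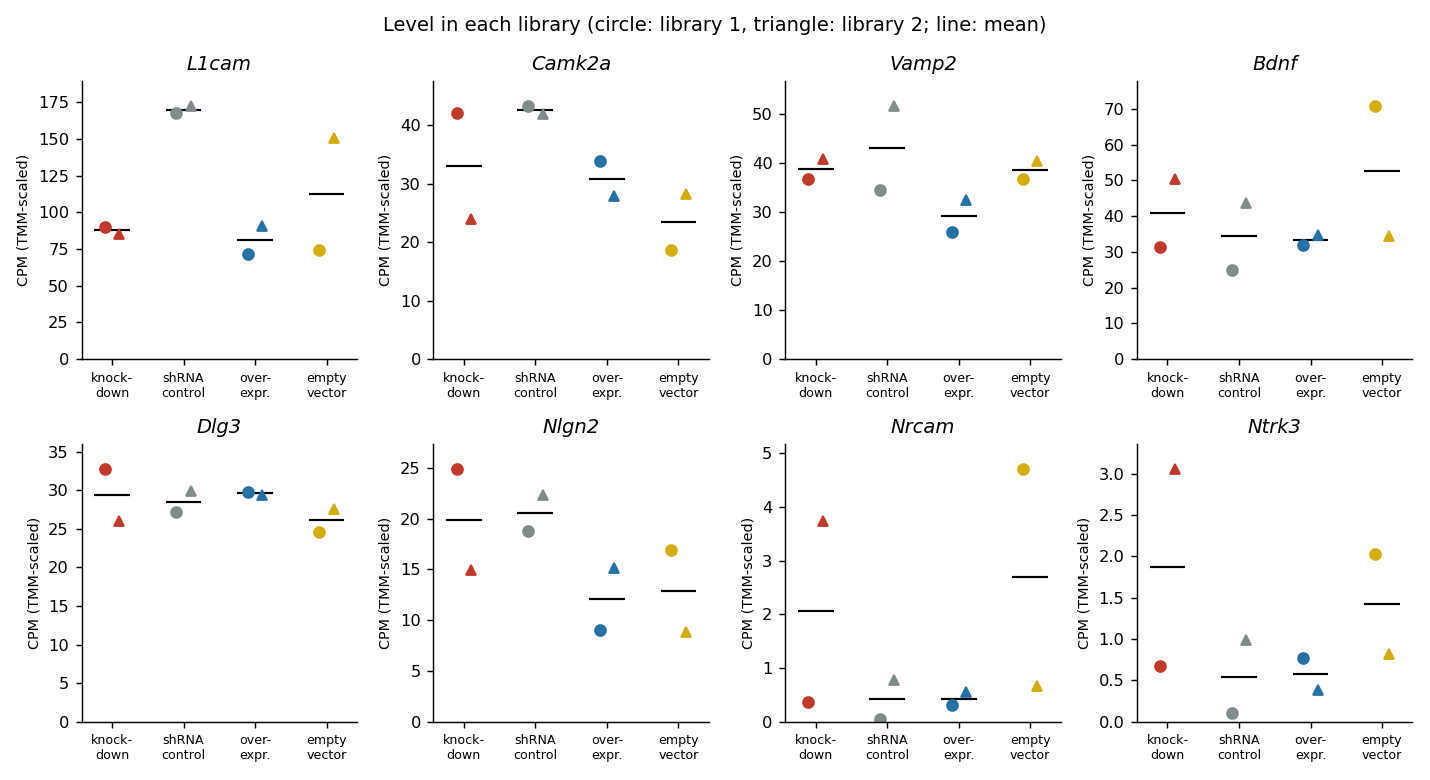
TMM-scaled CPM of 8 members in each library (circles library 1, triangles library 2, horizontal lines the group means), with the groups in the order knockdown, shRNA control, overexpression and empty vector and each axis starting at 0. L1cam sits at 85.4 to 90.1 CPM in the knockdown against 168 to 172 CPM in the shRNA control, while Nrcam and Ntrk3 are highest in knockdown library 2 and vector library 1.

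In the overexpression comparison L1cam was low again, but 1 vector library was as low. L1cam had 71.9 and 91.0 CPM in overexpressing cells, against 74.5 and 151 CPM with the empty vector, so the groups overlapped. The log2 ratio was -0.47 (SE 0.31), with an adjusted p of 0.626 in edgeR. Leaving out vector library 2 gave 0.13, and leaving out vector library 1 gave -0.89. The 2 shRNA control libraries and vector library 2 thus held 151 to 172 CPM, and the other 5 libraries 71.9 to 91.0 CPM. The summed level of the endothelium and pericyte markers, nearly all of it Pdgfrb (Pecam1 had 18 counts in all), was picked from the 6 lists after the values were seen. It was 20.8 to 35.3 FPKM in the knockdown, 39.5 to 43.6 FPKM in the shRNA control, 25.3 to 25.5 FPKM in the overexpression group, and 17.1 and 40.8 FPKM in the vector libraries. Others of that list went another way: Cdh5 was highest in both vector libraries (0.190 and 0.189 FPKM) and Tek in knockdown library 2 (0.378 FPKM). The fibroblast sum was highest in knockdown library 1, where L1cam was low. The part of Pdgfrb in the result was not tested.

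The other members gave no call. Vamp2 had 26.0 and 32.5 CPM in overexpressing cells, against 36.8 and 40.5 CPM with the empty vector, with both overexpression libraries lower (log2 ratio -0.40, SE 0.25). Nrcam and Ntrk3, described below, were the other 2 members with both overexpression libraries lower, 3 in all, where 23.1% of all genes were. Dlg3 and Nrxn2 had both overexpression libraries higher, 2 members, where 24.1% of all genes did. Dlg3 had 29.8 and 29.4 CPM in overexpressing cells, against 24.6 and 27.6 CPM with the empty vector (log2 ratio 0.18, SE 0.21). Bdnf had 31.9 and 34.7 CPM in the overexpression libraries, against 70.7 and 34.4 CPM in the vector libraries (log2 ratio -0.66, SE 0.41). Its difference lay in vector library 1 alone, the highest of the 8. Camk2a (0.40, SE 0.32) and Nlgn2 (-0.09, SE 0.42) overlapped between the groups. None of the 17 had an unadjusted p under 0.05, where 7.62% of all genes did, and the median log2 ratio was -0.16 beside -0.01 for all genes tested.

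The controls were also compared with each other, and no member passed an adjusted p of 0.05 in edgeR. Empty vector cells were set against shRNA control cells, which shares libraries with both comparisons above, so its values are not independent of theirs. Camk2a had 18.6 and 28.2 CPM with the empty vector, against 43.2 and 41.8 CPM in the shRNA control libraries, without overlap. Its log2 ratio was -0.86 (SE 0.32), with an unadjusted p of 0.0289 and an adjusted p of 0.367 in edgeR. It was the 1 member at an unadjusted p under 0.05, where 12.5% of all genes were. Camk2b, Nrxn2, Nlgn2 and L1cam also had both vector libraries lower, which made 5 of the 17 members, where 26.5% of all genes were lower, and 0 members had both higher, where 24.6% of all genes did. Camk2b had 1.71 and 2.83 CPM with the empty vector, against 4.40 and 4.98 CPM in the shRNA control libraries. Nlgn2 had 16.9 and 8.86 CPM with the empty vector, against 18.8 and 22.3 CPM in the shRNA control libraries (log2 ratio -0.67, SE 0.42). The L1cam log2 ratio was -0.59 (SE 0.31), or -0.17 when vector library 1 was dropped and -1.19 when vector library 2 was. It was 0.61 (SE 0.41) for Bdnf, -0.16 (SE 0.25) for Vamp2 and -0.13 (SE 0.21) for Dlg3.

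Nrcam and Ntrk3 were highest in the same 2 libraries, which belong to different groups. Nrcam, an adhesion protein of nodes of Ranvier and axons (Entrez Gene 319504, chromosome 12, 44328786 to 44605194), was low in most libraries. It had 0.37 and 3.75 CPM in the knockdown libraries and 0.05 and 0.78 CPM in the shRNA control libraries. With overexpression it had 0.31 and 0.55 CPM, against 4.71 and 0.67 CPM with the empty vector. Only knockdown library 2 and vector library 1 were above 1 CPM. Ntrk3 (Entrez Gene 18213, chromosome 7, 78179986 to 78581034) was alike, and had 0.68 and 3.06 CPM in the knockdown libraries and 0.10 and 0.99 CPM in the shRNA control libraries. In the overexpression libraries it had 0.77 and 0.39 CPM, against 2.03 and 0.82 CPM in the vector libraries. The Nrcam log2 ratio was 2.29 (SE 1.39) in the knockdown and -2.63 (SE 1.40) in the overexpression comparison, and the Ntrk3 ones were 1.77 (SE 1.05) and -1.29 (SE 1.05). In the empty vector comparison they were 2.67 (SE 1.40) for Nrcam and 1.37 (SE 1.06) for Ntrk3. Leaving out knockdown library 2 gave a knockdown ratio of -0.18 for Nrcam.

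For some of the other tested members the same 2 libraries stood together at an end of the range, but not for most. Vamp2, Nlgn2, Camk2b and L1cam did not have them together at an end. The share of all genes with this pattern was not computed. Over all genes tested, knockdown library 2 lay nearest to vector library 1. Bdnf was highest in vector library 1 and second in knockdown library 2, at 70.7 and 50.3 CPM. Camk2a was lowest in the same 2, at 18.6 and 24.0 CPM. They also held the least RNA of the fibroblast and mesenchymal markers, at 361 and 374 FPKM summed against 460 to 1086 FPKM in the other 6, and of the astrocyte markers, at 18.1 and 23.0 FPKM against 33.8 to 55.9 FPKM. Most of the fibroblast sum is Col1a1 and Col1a2, and Fn1 on the same list did not follow it, with 132 FPKM in vector library 1 and 93.9 FPKM in knockdown library 2, against 71.1 and 80.8 FPKM in the overexpression libraries. On the astrocyte list, Gfap was instead highest in these 2 libraries, at 0.276 FPKM in vector library 1 and 0.316 FPKM in knockdown library 2. Gfap had 0.124 to 0.185 FPKM in the other 6. The part of these marker differences in the members' values was not tested.

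Whether overexpression and knockdown acted differently was tested in the same model, and no member passed. Nrcam had the lowest p, with a difference of -4.92 on the log2 scale (SE 1.97, unadjusted p 0.0379, adjusted p 0.650 in edgeR), and it was the 1 member at an unadjusted p under 0.05, where 6.92% of all genes were. The difference for L1cam was 0.49 (SE 0.44). The other neuronal genes gave no call either: of 56 tested, 0 were higher and 0 lower in each comparison. Their median log2 ratio was -0.06 in the knockdown, -0.18 in the overexpression and -0.17 in the empty vector comparison. The 11 repressors likewise had 0 calls, with medians of -0.02, 0.02 and 0.12 in the same 3 comparisons.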

How the data were processed

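RNA was sequenced from HT22 cells in 4 groups. The deposited count table held whole read counts per gene without normalization. The authors also deposited FPKM values, which equalled the count divided by 1 length per gene and by the summed counts within a tolerance of 0.01 in 12615 of 12615 genes counted in all libraries. Per the submitters' processing notes the tools were Trimmomatic, HISAT2, Cufflinks, HTSeq and DESeq, with the build mm10. Their versions and roles, the annotation and the strand setting are not given in these sources. Columns were assigned to groups by reading their names, which call the target AK where the labels have Ntoco, and 0 value columns were left out. Nothing in the labels says that both libraries of a group are separate cultures, and the p-values cover the spread between libraries alone, which can be technical.

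The 44 members and all gene lists were chosen with earlier results of these data known. Levels were described by the deposited FPKM, with at least 1 FPKM on average called expressed. Counts were filtered with filterByExpr (minimum count 10), which left 12115 genes, scaled with TMM and tested with edgeR 4.0.16 (R 4.3.3, quasi-likelihood F-test, 4 groups in a single model, Benjamini-Hochberg over all genes tested, threshold 0.05). Standard errors are the log2 ratio divided by the square root of F. Alternatives were RLE scaling, DESeq2 1.42.0, no filter, a model of the compared groups only, a replicate block, and leaving out each library. Members with a mean of at least 1 FPKM or an unadjusted p under 0.05 are named with every library's value, and the other members given by library, Nrcam and Ntrk3 included, and Rest were added after their values were seen. Grik5, Grik3 and Gria4 were also added after their values were seen. Other genes named have at least 10 FPKM, belong to a pair of relatives or mark another cell type. Some genes that meet this rule are not reported here. Rows matched RefSeq genes of GRCm38.p6 by Entrez identifier, which gave the coordinates, and exon overlaps are from GENCODE M21. Figures were drawn with matplotlib 3.10.9.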

Additional observations from a re-analysis of the deposited data

How the results depend on the processing

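With 0 members called in each comparison, every alternative also gave 0: RLE scaling, DESeq2, no filter on low counts, only the compared groups in the model, the replicate block and each library left out. A block with the vector numbers crossed, chosen after seeing the data, gave 0 as well. Over all genes, where edgeR called 0, DESeq2 called 15 in the knockdown, 1 in the overexpression and 281 in the vector comparison and 11 in the difference of effects. Models of only the compared groups called 0 in the knockdown, 1 in the overexpression and 128 in the vector comparison, no filter called 3 and the crossed block 1 in the vector comparison, and leaving out 1 library called 0 to 25, with 25 in the overexpression comparison without overexpression library 2. The library then left alone is assumed to vary like the other groups. The replicate block called 0. The library numbers come from the column names only, and same-numbered libraries deviated together by a correlation of 0.361 between knockdown and shRNA control and -0.217 between overexpression and vector, so they were not taken as pairs. The count of 6 expressed members became 13 at a mean of at least 1 CPM, because that threshold takes no account of length, and stayed within 1.5 times under the other FPKM thresholds and without each library.

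Of 24 log2 ratios of the members named by value, 9 changed sign in some alternative. Without 1 library, Bdnf ranged from -0.14 to 0.70 in the knockdown and from -0.0022 to 1.06 in the vector comparison, Dlg3 from -0.14 to 0.20 in the knockdown and Nrcam from -0.18 to 5.13 there. L1cam ranged from -0.89 to 0.13 in the overexpression comparison, Nlgn2 from -0.47 to 0.28 in the knockdown and from -0.50 to 0.45 in the overexpression comparison, and Vamp2 from -0.41 to 0.17 in the knockdown and from -0.42 to 0.16 in the vector comparison. The Nlgn2 knockdown ratio was 0.0007 with the crossed block. The lowest adjusted p of these members in any alternative was 0.177. Depth limits the 15 members too low to test, and 2 libraries a group limit the other 17.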
